A study of Mus musculus with 3 samples.

Results

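Ccl3/Tnf neutrophils are the neutrophils of these mouse tumours whose transcripts of Ccl3, Ccl4, Il1rn, Tnf and Siglecf outnumbered those of Retnlg, Ngp, Ly6g and Ifitm6. They made up 628 of 33482 cell barcodes in 3 single-cell RNA libraries. A barcode first had to hold at least 200 genes, at most 20% mitochondrial UMIs and fewer than 5000 UMIs (unique molecular identifiers, each counting 1 captured RNA molecule). It then had to hold no UMI of C1qa, C1qb, C1qc or Cd3e and at least 1 UMI in 2 or more of the 6 gate genes Csf3r, Cxcr2, Il1r2, G0s2, Hdc and Mmp9. This gate took 3008 barcodes. Of these, 628 had the larger sum for the first 5 genes, 2018 had the larger sum for Retnlg and its companions and are called Retnlg neutrophils here, and 362 had equal sums. The members were thus chosen by measured RNA, so their levels of all these genes are a description and no finding.

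All tumours came from LLC1-sgLkb1, a derivative of the Lewis lung carcinoma line whose label reads LKB1 knockdown. In the series' design, mice received these cells through a tail vein to form lung lesions and, 3 weeks later, under the skin to form the tumour that was irradiated. The tissue label says only tumor and does not tell which lesion was taken. The first library, Flox+ICI, came from a Sfrp2 fl/fl host given an immune checkpoint inhibitor alone, and the second, Flox+RI, from a Sfrp2 fl/fl host given radiation and the inhibitor. The library labelled CKO+RI was from a Sfrp2ΔCol1a2 host, in which Sfrp2 is deleted in cells that use the Col1a2 promoter, mainly fibroblasts, and had the same combined treatment. All 3 groups therefore share the tumour line and the checkpoint inhibitor, no untreated group was used here, and each group is 1 library without a replicate. The host genotypes come from the library titles and the design text, and how many mice went into a library was not given in the sources used here.

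Neutrophils are short-lived phagocytes made in the bone marrow. During maturation they fill their granules with antimicrobial proteins, and they leave for the blood under the control of the chemokine receptors CXCR2 and CXCR4. In inflamed tissue and in tumours they switch on genes driven by NF-kB, among them cytokines and chemokines. CCL3 and CCL4 are chemokines that attract monocytes and T cells, TNF is a central inflammatory cytokine, and Il1rn encodes the secreted antagonist of the interleukin-1 receptor. Siglecf encodes a sialic acid-binding receptor of eosinophils that also marks a neutrophil state described in mouse lung tumours. Retnlg, Ngp, Ly6g and Ifitm6 are typical of marrow and blood neutrophils.

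Depth differed between the libraries. They held 75543561, 101840883 and 161250286 UMIs, in the order Flox+ICI, Flox+RI and CKO+RI, which is the order of all triplets of values given without names. After the limits on genes and mitochondrial UMIs, 10692, 13073 and 9036 barcodes were kept, with medians of 3254, 2923 and 14467.5 UMIs. Sfrp2 had 24, 12 and 46 UMIs over the kept barcodes, among 75299447, 101168127 and 160709823 UMIs of all genes. Sfrp2 was thus too sparse to back the label CKO+RI or to speak against it. It had 0 UMIs in the Ccl3/Tnf neutrophils, which allows at most 16.7, 6.93 and 46.0 CPM (UMIs of a gene per 1000000 UMIs summed over a class of cells), so these cells do not bear on that label. Pairs of libraries shared 31 to 37 barcode sequences, and no barcode was a Ccl3/Tnf neutrophil in both libraries of a pair. All intervals here are exact 95% intervals that cover counting error only. With 1 library per group there is no test between groups, and a difference cannot be told apart from one between 2 mice or 2 preparations.

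Ccl3/Tnf neutrophils were most frequent in Flox+RI. Flox+ICI held 134 of them, Flox+RI 453 and the third library 41. As a share of kept barcodes this was 1.25% (1.05 to 1.48), 3.47% (3.16 to 3.79) and 0.454% (0.326 to 0.615). Among neutrophils that fell on either side of the rule, they were 46.0% (42.8 to 49.2) in Flox+RI, against 10.5% (8.89 to 12.3) in Flox+ICI and 10.6% (7.71 to 14.1) in the third library. The Flox+RI share therefore lay far above both others, whose intervals overlapped. Retnlg neutrophils numbered 1140, 532 and 346, so Flox+RI had fewer of them than Flox+ICI and more of the Ccl3/Tnf kind. From shares alone, an excess of Ccl3/Tnf neutrophils and a shortage of Retnlg neutrophils cannot be told apart.

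**Figure D1:**
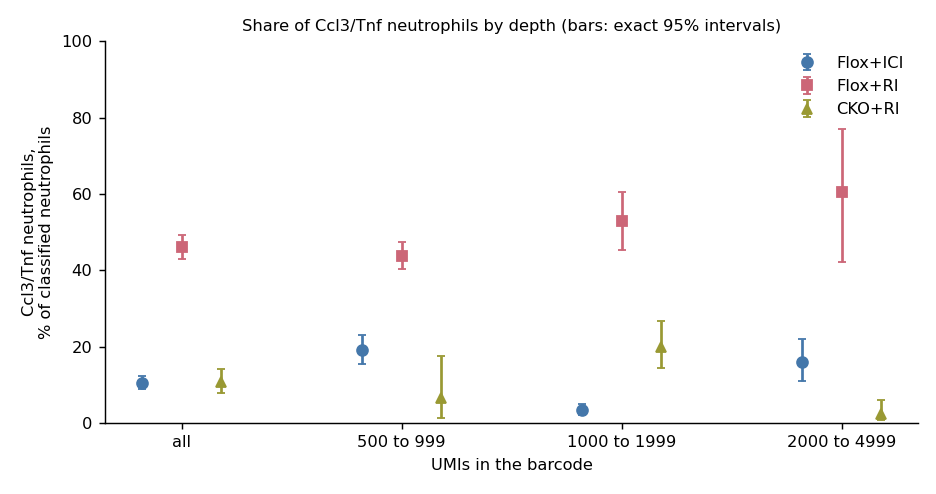
Ccl3/Tnf neutrophils as a percentage of classified neutrophils (those on either side of the rule) on the y axis, for all barcodes and for 3 ranges of UMIs per barcode on the x axis. Points are single libraries, and bars are exact 95% binomial intervals. Flox+RI lies above the other libraries in each range, at 43.8%, 52.9% and 60.6%.

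The order of the shares was checked within ranges of depth, since the libraries differ in it. Between 500 and 999 UMIs, Ccl3/Tnf neutrophils were 43.8% of classified neutrophils in Flox+RI, 19.0% in Flox+ICI and 6.38% in the third library, the last from 3 cells. Between 1000 and 1999 UMIs the shares were 3.24%, 52.9% and 20%, and between 2000 and 4999 UMIs they were 15.9%, 60.6% and 2.35%. Flox+RI was highest in every range, while the order of the other 2 libraries changed from range to range. Most Ccl3/Tnf neutrophils of the Flox libraries were shallow, with 62.7% and 75.3% of them under 1000 UMIs, whereas 82.9% of those labelled CKO+RI lay between 1000 and 1999. Their median depths were 876.5, 784 and 1628 UMIs, and those of the Retnlg neutrophils were 1203, 765.5 and 1942. Mitochondrial UMIs were low, with medians of 0.823%, 1.02% and 0.566%.

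Many members sat close to the border of the rule. The larger sum won by a single UMI in 53 of 134, 113 of 453 and 8 of 41 members. It won by 6 or more UMIs in 29, 134 and 17 members. Just outside the border, 88, 67 and 15 barcodes fell short by 1 UMI. Another 104, 162 and 17 gated barcodes held no UMI on either side.

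The gate genes, which the rule itself requires, were found in differing shares of members, and the libraries also differed in depth as given above. Csf3r, the receptor for G-CSF that defines the granulocyte lineage, had a UMI in 65.7%, 52.8% and 61.0% of members. Among T-marked barcodes (a UMI each of Cd3e and Cd3d, median 1976, 1683 and 3013 UMIs), which should lack it, Csf3r was found in 1.02% in Flox+ICI. It was found in 0 of 107 and 0 of 141 such barcodes in the other libraries, which allows up to 2.80% and 2.13%. The decoy interleukin-1 receptor gene Il1r2 was present in 85.8%, 85.4% and 87.8% of members. At least 4 of the 6 gate genes were found in 70.7% of members labelled CKO+RI (54.5 to 83.9), 29.9% of those of Flox+ICI (22.3 to 38.4) and 8.83% of those of Flox+RI (6.38 to 11.8). In Retnlg neutrophils the same shares were 53.6%, 29.7% and 70.5%, so Flox+RI was lowest in both classes. Outside the rule, a further 698 kept barcodes of Flox+RI met every other condition but held only 1 gate gene, against 131 and 34 in the other libraries.

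Markers of other cells differed between the libraries. The 5 monocyte markers summed to 1533, 289 and 414 CPM in the members. Their sums were 1026, 541 and 527 CPM in Retnlg neutrophils and 270, 212 and 162 CPM over all kept barcodes. Of the members of Flox+ICI, 18 of 134 (13.4%) held 3 or more of them, against 4 of 453 in Flox+RI. None of 41 did so in the library labelled CKO+RI, which allows up to 7.32%. Macrophage markers summed to 1449, 2012 and 383 CPM in the members, mostly Apoe. These sums were 772, 950 and 437 CPM in Retnlg neutrophils and 3340, 2845 and 1262 CPM over all kept barcodes. At least 3 macrophage markers were held by 11 and 12 members of the Flox libraries and by none of the 41. The complement genes C1qa, C1qb and C1qc are at 0 by the rule, and Ms4a7 and Trem2 were also at 0 in the library labelled CKO+RI. All 5 eosinophil markers (Prg2, Epx, Ccr3, Il5ra and Prg3) had 0 UMIs in the members of every library. Tumour and epithelial markers summed to 2558, 1381 and 1885 CPM, below the 6324, 3376 and 3385 CPM of all kept barcodes. Of the members, 36 of 134 (26.9%), 32 of 453 (7.06%) and 13 of 41 (31.7%) held 3 or more of them. The part of these cells in the results was not tested beyond leaving such barcodes out.

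The genes that define the class varied in their mix. Ccl3 stood at 1048 CPM in Flox+ICI (188 UMIs), 2427 CPM in Flox+RI (1051 UMIs) and 3003 CPM in the third library (196 UMIs), against 46.4, 240.2 and 131 CPM in Retnlg neutrophils. Tnf stood at 1438, 1635 and 1057 CPM, against 211, 270.5 and 98.99 CPM. The Ccl3 level was thus lowest in Flox+ICI in both classes, while Tnf in the members varied less. A UMI of Ccl3 was found in 37.3%, 67.1% and 63.4% of members, and in 3.57%, 14.0% and 12.8% of T-marked barcodes, which can also transcribe it. With every member thinned to 500 UMIs the Ccl3 shares were 25.4%, 58.1% and 48.8%. Tnf was found in 73.1%, 62.0% and 48.8% of members and in 15.8%, 15.9% and 17.0% of T-marked barcodes. The 2 genes hence traded places as the most widely detected of the 5, Tnf in Flox+ICI and Ccl3 in the others.

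Ccl4 (chr11:83662584-83664683) lies beside Ccl3 (chr11:83647844-83649355) on GRCm38, by the GENCODE vM21 annotation. It reached 925, 654 and 1701 CPM in the members, against 162.5, 90.9 and 131 CPM in Retnlg neutrophils. Il1rn reached 346, 416 and 536 CPM and was found in 26.1%, 28.7% and 51.2% of members, against 64.6, 119 and 67.0 CPM in Retnlg neutrophils. T-marked barcodes held Il1rn in 1.53% and 3.74% in the Flox libraries, and in 0 of 141 in the third, which allows up to 2.13%. Siglecf was nearly absent from the members, with 2, 7 and 1 UMIs in 1.49%, 1.33% and 2.44% of them. The name tumour-adapted or Siglecf-positive neutrophil is therefore not used here.

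**Figure D2:**
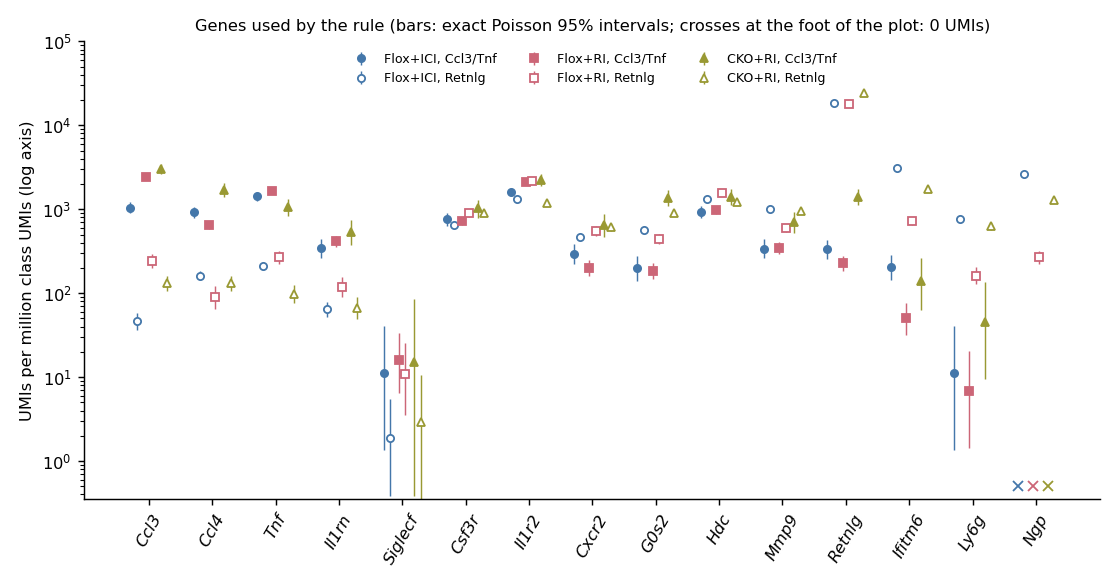
Levels of the 15 genes used by the rule (UMIs per 1000000 class UMIs, log y axis) in Ccl3/Tnf neutrophils (filled) and Retnlg neutrophils (open) of the 3 libraries, with exact 95% Poisson bars. Ccl3, Ccl4, Tnf and Il1rn lie higher and Retnlg, Ifitm6, Ly6g and Ngp lower in the members, as the rule requires, while Siglecf lies at 16.2 or lower in both classes. Crosses stand for 0 UMIs of Ngp.

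Single members rarely carried the whole set. Both Ccl3 and Tnf were found in 171 members of Flox+RI (37.75%), 39 of Flox+ICI (29.1%) and 12 of those labelled CKO+RI (29.3%). Tnf was the only one of the 5 genes in 44, 77 and 5 members. At least 2 of the 5 were found in 45.5%, 57.8% and 70.7%. Where Ccl3 was present a member held a median of 3, 3 and 5 UMIs of it, with highest values of 17, 24 and 27. Of all UMIs in the sum of 5 genes, Ccl3 gave 27.8%, 47.2% and 47.6%, and Tnf gave 38.2%, 31.8% and 16.8%.

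The genes on the other side of the rule were low but not gone. Retnlg stood at 334, 229 and 1410 CPM in the members against 18375, 18131 and 24331 CPM in Retnlg neutrophils. Ngp had 0 UMIs in the members of all 3 libraries, which allows at most 16.7, 6.93 and 46.0 CPM, against 2631, 270.5 and 1278 CPM. Ifitm6 stood at 206, 50.8 and 138 CPM in the members. Of the gate genes, G0s2, an inhibitor of lipolysis, and Cxcr2 stood highest in the library labelled CKO+RI, with 1364 CPM of G0s2 against 201 and 185, and 644 CPM of Cxcr2 against 295 and 199.

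The promoters of Ccl3, Tnf and Il1rn and, from the other side of the rule, Retnlg are shown as examples with and without a match to the NF-kB type motif GGGANNNNCC. A match does not separate the sides, since Tnf and Il1rn hold one and Ccl3 does not, while Retnlg holds none and Ly6g, on its side, does. Each is 300 bases long, from 250 before to 50 after the start of the gene, from RefSeq on GRCm38.p6, written 5′ to 3′ on the strand of the gene, with matches in capitals. Ccl3 is chr11:83649329-83649628 (minus strand), Tnf is chr17:35201958-35202257 (minus), Il1rn is the first of 3 entries at chr2:24336610-24336909 (plus) and Retnlg is chr16:48872358-48872657 (plus).
Ccl3: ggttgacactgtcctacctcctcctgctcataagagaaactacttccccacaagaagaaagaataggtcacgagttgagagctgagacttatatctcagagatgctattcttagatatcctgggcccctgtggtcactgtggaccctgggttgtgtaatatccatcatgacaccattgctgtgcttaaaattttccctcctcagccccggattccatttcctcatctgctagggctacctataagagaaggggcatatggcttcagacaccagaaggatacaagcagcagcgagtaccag
Tnf: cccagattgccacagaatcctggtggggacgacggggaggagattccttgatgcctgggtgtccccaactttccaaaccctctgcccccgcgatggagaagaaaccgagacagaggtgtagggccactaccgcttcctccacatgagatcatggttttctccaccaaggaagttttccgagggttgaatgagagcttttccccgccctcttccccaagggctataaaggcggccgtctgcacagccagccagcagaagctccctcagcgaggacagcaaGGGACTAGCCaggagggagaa
Il1rn: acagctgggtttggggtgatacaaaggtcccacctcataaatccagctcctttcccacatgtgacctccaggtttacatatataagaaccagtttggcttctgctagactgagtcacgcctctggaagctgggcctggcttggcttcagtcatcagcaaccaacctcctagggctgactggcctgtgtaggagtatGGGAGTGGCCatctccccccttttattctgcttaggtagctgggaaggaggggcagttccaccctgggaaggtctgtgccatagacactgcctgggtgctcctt
Retnlg: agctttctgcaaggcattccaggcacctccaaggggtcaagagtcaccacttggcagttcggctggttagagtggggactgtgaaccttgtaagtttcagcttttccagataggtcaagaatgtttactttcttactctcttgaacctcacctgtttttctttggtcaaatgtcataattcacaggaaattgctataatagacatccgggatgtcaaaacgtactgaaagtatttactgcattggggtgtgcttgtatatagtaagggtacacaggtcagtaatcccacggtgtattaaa

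The match in the first entry of Il1rn, which the other entries lack, is GGGAGTGGCC from base 197 of the window and that in Tnf is GGGACTAGCC from base 280, after the start of the gene. Neither overlaps a match to the AP-1 type motif TGANTCA or the C/EBP type motif TTNNGNAA, for which the windows were also searched on both strands. Il1rn held 1 match to the AP-1 type motif, TGAGTCA from base 110. Ccl3 and Retnlg held 1 match each to the C/EBP type motif and Tnf held 2. Such letters are common, as GGGANNNNCC occurred in 20.7% of 32851 RefSeq promoters of this length, TGANTCA in 7.81% and TTNNGNAA in 40.7%. A match describes these windows and shows no binding, and a window without one says nothing about the factor.

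Beyond the genes of the rule, Ccl3/Tnf neutrophils of the Flox libraries held less RNA of most granule genes than Retnlg neutrophils. They held more of some lysosome and lipid genes and of some NF-kB target and survival genes. A gene was called higher or lower here when its CPM differed at least 2-fold with an interval that left out 1 and when both classes together held at least 20 UMIs. By this measure 10.2% of 6876 genes were higher and 2.59% lower in Flox+ICI, 9.27% and 5.78% of 5245 in Flox+RI, and 7.26% and 3.04% of 4217 in the third library. The rule compares the same cells, so these counts carry no test. In both Flox libraries, 148 of 5102 genes were higher (2.90%) and 79 lower (1.55%), and 3 (Erf, Trim30d and Ccl5) went opposite ways. Of the 148 genes, 147 had a ratio in the library labelled CKO+RI, of which 107 were above 1 and 68 at least 2, with a median ratio of 1.89. Of the 79, 69 were below 1 there and 47 at most 0.5, with a median of 0.409. Over all genes the median log2 ratio was 0.39, 0.20 and 0.18, so scaling each comparison to its median ratio changed the split in both Flox libraries from 148 higher and 79 lower to 56 and 169. Of the 148 genes, 121 had a RefSeq promoter, and GGGANNNNCC, TGANTCA and TTNNGNAA occurred in 21.5%, 14.0% and 38.8% of these. The shares were 24.2%, 9.09% and 47.0% of the 66 promoters of the lower genes.

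By the interval bound nearest to 1, F10 headed the genes higher in both Flox libraries (bound 2.69), and it is described with the second set. Among those also higher in the third library, the guanine nucleotide exchange factor gene Dock10 came first. It stood at 563, 552 and 260.5 CPM in the members against 98.5, 164.5 and 43.7 CPM in Retnlg neutrophils, which is 5.72-fold (4.41 to 7.39), 3.36-fold (2.58 to 4.40) and 5.97-fold (3.09 to 11.2) higher. Clec4n, which encodes the fungal pattern receptor dectin-2, stood at 412, 416 and 858 CPM against 77.8, 160.2 and 75.7 CPM. The cell cycle inhibitor gene Cdkn1a stood at 574, 963 and 1195 CPM against 233, 403 and 191 CPM. All 3 were higher in the members of each library. Basp1, a membrane-bound signalling protein gene, was 3.98-, 2.36- and 6.49-fold higher, and Ninj1, needed for the rupture of dying cells, was 2.69-, 2.23- and 4.69-fold higher. Ctsb, the gene of the lysosomal protease cathepsin B, was 2.32-, 2.65- and 2.49-fold higher, the first 1.98-fold without 1 barcode. Chil3, a chitinase-like secreted protein gene, was 2.96-, 2.22- and 2.28-fold higher, and in the Flox libraries it was the only measured granule gene that was higher. In the third library 14 of its 41 UMIs lay in 1 barcode, without which the ratio was 1.54 (0.992 to 2.32).

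A second set was higher in the Flox libraries and not in the third. F10, which encodes coagulation factor X, stood at 323 and 607 CPM in the members of Flox+ICI and Flox+RI against 80.9 and 175 CPM in Retnlg neutrophils, but at 15.3 CPM, from 1 UMI, in the library labelled CKO+RI against 14.6 CPM. Lrmda stood at 518 and 1411 CPM against 214 and 411 CPM, and at 199 CPM against 226 CPM in the third library. The autophagy receptor gene Sqstm1 was 2.81- and 3.08-fold higher in the Flox libraries, and 1.35-fold in the third with an interval of 0.802 to 2.16. Lamp1, a lysosomal membrane protein gene, was 2.56-, 2.43- and 1.27-fold, and the cathepsin S gene Ctss 2.62-, 2.38- and 1.32-fold. The intervals of Lrmda, Lamp1 and Ctss in the third library also held 1, and whether the libraries differ in these ratios was not tested.

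**Figure D3:**
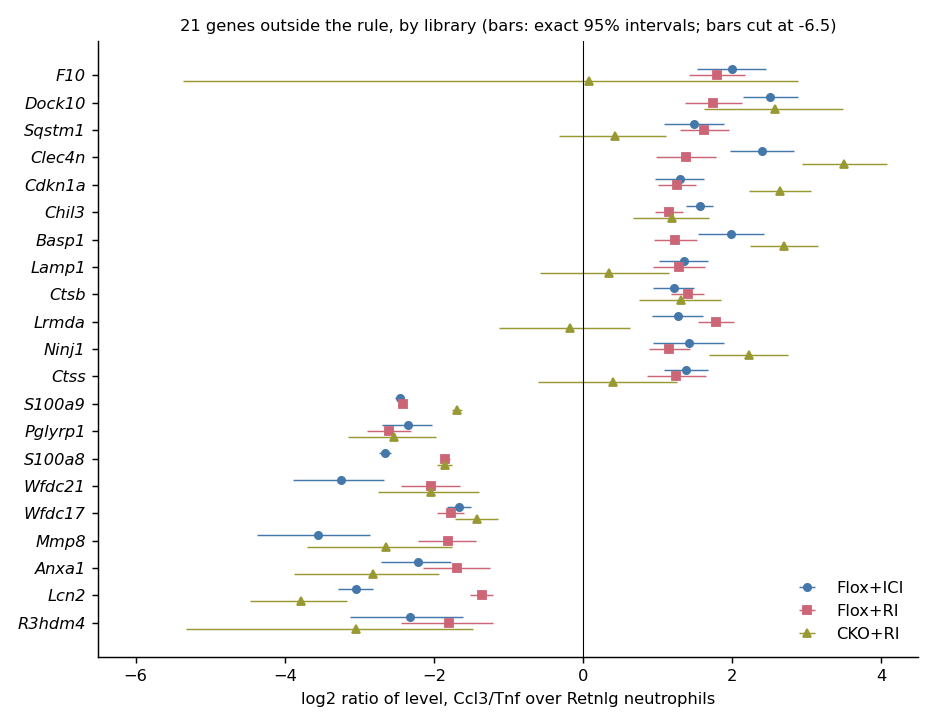
Log2 ratio of level between Ccl3/Tnf and Retnlg neutrophils (x axis) for 12 genes higher and 9 genes lower in the members of both Flox libraries, chosen by the interval bound nearest to no difference. Points are single libraries, bars are exact 95% intervals, and the vertical line marks equal levels. The 9 lower genes, from S100a9 to R3hdm4, lie left of the line in all 3 libraries, while F10 and Lrmda lie near it in the library labelled CKO+RI.

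Granule and related genes of marrow and blood neutrophils were lower. S100a9, a subunit gene of the alarmin calprotectin, stood at 14391, 8152 and 25391 CPM in the members against 79264, 43327 and 81886 CPM in Retnlg neutrophils, or 5.51-, 5.32- and 3.23-fold lower. S100a8 was 6.32-, 3.61- and 3.62-fold lower, and the pair took up 2.15%, 1.44% and 3.85% of the members' UMIs against 12.4%, 6.6% and 12.9%. Lcn2, which encodes the iron-siderophore binding lipocalin-2, was 8.27-, 2.57- and 13.7-fold lower. Pglyrp1, a peptidoglycan-binding antibacterial protein gene, was 5.09-, 6.05- and 5.78-fold lower, and the collagenase gene Mmp8 was 11.8-, 3.51- and 6.23-fold lower. Wfdc21, Wfdc17, Anxa1 and R3hdm4 were 3.17- to 9.48-fold lower in the Flox libraries. In the third, Wfdc17 was 2.68-fold, Wfdc21 4.10-fold and Anxa1, the gene of the anti-inflammatory annexin A1, 7.04-fold lower. R3hdm4 was at a ratio of 0.1215 there, from 3 UMIs against 260 in the larger class of Retnlg neutrophils. Of the measured granule genes outside the rule, 11 of 15 were lower in Flox+ICI, 9 of 14 in Flox+RI and 10 of 14 in the third library, with medians of -2.61, -1.52 and -1.98 on the log2 scale. The rule chose on granule and blood genes, so a low list here follows the choice.

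Lysosome and lipid genes lay on the high side in the Flox libraries. Of 18 measured in Flox+ICI, 7 were higher and none lower (median log2 0.94), and of 17 in Flox+RI, 9 and 0 (median 1.02). In the library labelled CKO+RI, 3 of 16 were higher and 1 lower (median 0.26). Cstb, an inhibitor of cathepsins, was 1.96-, 2.72- and 2.71-fold higher, the first short of the 2-fold limit. In Flox+ICI, 241 of the list's 1601 UMIs lay in 1 member, and without it 5 were higher (median 0.76). When each gene lost the barcode with most of its UMIs in either class, 3 of the 7 higher calls of Flox+ICI were kept. In Flox+RI 7 of the 9 were kept, and in the third library 2 of the 3. Gpnmb, a glycoprotein gene of lysosome-rich macrophages, was 4.72-fold higher in Flox+RI and had 0 UMIs in the members of the third library. In Flox+ICI it was 2.68-fold higher, but 12 of its 19 UMIs lay in 1 barcode, without which the ratio was 1.01 (0.389 to 2.20). The macrophage markers above include genes of this kind, and their part in the list was not tested.

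Survival and cytokine genes were high in part. Of the NF-kB target and survival genes, 4 of 21 were higher in Flox+ICI, 5 of 21 in Flox+RI and 8 of 18 in the third library, none lower, with medians of 0.71, 0.33 and 1.24. Bcl2a1b, of the A1 family that blocks apoptosis, stood at 273, 342 and 460 CPM against 64.6, 110.4 and 36.4 CPM. Its near-identical copies Bcl2a1a and Bcl2a1d share sequence with it, so the split of UMIs between them is uncertain. Csf1, the growth factor gene of macrophages, stood at 228.5, 268 and 690 CPM in the members against 27.6, 54.1 and 48.0 CPM, which is 8.28-, 4.95- and 14.4-fold higher. Cxcl3, a neutrophil-attracting chemokine gene, was 7.11-, 2.22- and 31.0-fold higher. In Flox+RI 20 of its 50 UMIs lay in 1 barcode, without which the ratio was 1.34 (0.758 to 2.40), and in the third library the ratio was 18.75 without the member with most of its UMIs. Its close relative Cxcl2 was not called in the Flox libraries, with 9832 against 6659 CPM and 8249 against 9151 CPM, but stood at 19063 against 3411 CPM in the third. Il1b, the gene of interleukin-1 beta, was at ratios of 1.12, 0.634 and 2.01, and it was called higher in the third library alone, where it stood at 1.88 without 1 barcode.

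Of the other lists, surface receptors had most calls in the third library and antigen presentation genes in Flox+RI. Among 27 surface receptors outside the gate, 5 were higher and 0 lower in Flox+ICI, 4 and 3 in Flox+RI, and 10 and 0 of 26 in the third library. When each gene lost the barcode with most of its UMIs in either class, 2, 3 and 7 of these higher calls were kept. Interferon-induced genes were higher in 1 of 20, 1 of 17 and 5 of 19, and lower in 0, 3 and 0. Of the glycolysis and hypoxia genes, 1 of 23, 0 of 25 and 5 of 25 were higher, and 2, 1 and 1 lower. Of the 5 in the third library, 1 kept the call without the barcode with most UMIs of the gene in either class. Slc2a3, a glucose transporter gene, was 2.48-, 6.28- and 2.93-fold lower in the members of the 3 libraries. Of the antigen presentation genes, 2 of 12, 5 of 12 and 2 of 10 were higher, among them Cd74 and H2-Ab1 in Flox+RI, at 2.68- and 2.97-fold. There 1 member held 70 of the 176 UMIs of Cd74, and 24 of the 39 of H2-Ab1 lay in 1 member too. Leaving these out gave ratios of 1.63 and 1.15, and without the member with most UMIs of the list 2 of 12 were higher. In the third library, 2 of 19 interferon-induced genes were higher without 1 such member. Without each gene's own top barcode, 0, 2 and 2 higher calls were kept among antigen presentation genes and 1, 0 and 1 among interferon-induced genes.

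The library labelled CKO+RI was set beside Flox+RI because the labels differ in the deletion of Sfrp2 and share the combined treatment. Sfrp2 was too sparse to back that label or to speak against it, and 1 library per group does not show what a deletion changes. The 41 cells labelled CKO+RI held more RNA of interferon-induced genes, surface receptors, stefin A genes and Cxcl2 than the 453 of Flox+RI, and less of lysosomal and lipid genes. Of 3757 genes, 8.68% were higher and 7.48% lower, and in Retnlg neutrophils 4% and 7.05% of 5504. The all-gene median log2 ratio was -0.13 in members and -0.09 in Retnlg neutrophils. The cells labelled CKO+RI were deeper, held more gate genes and lower macrophage markers, as given above, and whether these set any difference was not tested.

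By the interval bound nearest to 1, the genes that stood highest were of the stefin A family. Cstdc4 stood at 2544 CPM against 212.5 CPM in Flox+RI, 11.97-fold higher (9.23 to 15.6), while in Retnlg neutrophils its ratio was 0.926. Stfa2l1, from the same family of cysteine protease inhibitors, stood at 2237 against 212.5 CPM, and its ratio was 0.916 in Retnlg neutrophils. Members of this family are near-identical, so the share of each copy is uncertain. Retnlg neutrophils held 1004 CPM of Cstdc4 in the library labelled CKO+RI and 1084 CPM in Flox+RI, between the members of the first and of the second. Members of Flox+ICI held 279 CPM of it, against 828 CPM in their Retnlg neutrophils. Upp1, the uridine phosphorylase gene, stood at 965 against 192 CPM, with 1.14 as the ratio in Retnlg neutrophils. Ptgs2, which encodes the prostaglandin-forming enzyme COX-2, stood at 889 against 203 CPM in members and at 69.9 against 145 CPM in Retnlg neutrophils. Zfp36, which encodes the mRNA decay factor tristetraprolin, was 3.94-fold higher, and S100a9 was 3.12-fold higher.

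Interferon-induced genes were higher in 10 of 16 and lower in none, with a median log2 ratio of 1.56. Isg15, a ubiquitin-like modifier gene, stood at 1471 against 316 CPM, 4.65-fold higher (3.54 to 6.08). Ifit3 stood at 261 against 23.1 CPM, and the guanylate-binding protein gene Gbp2 at 536 against 67.0 CPM. Gbp5, Zbp1, Isg20, Slfn4, Ifi204, Irf7 and Rsad2 were 2.46- to 7.74-fold higher, while the interval of Cxcl10 held 1. A single member held 59 of the 393 UMIs of the list, and without it 7 were higher (median 1.15). For 5 of the 10 genes (Ifit3, Gbp5, Ifi204, Irf7 and Rsad2) the call was lost without the member with most UMIs of that gene, Ifit3 with 12 of its 17 and Rsad2 with 8 of its 13 UMIs there. Retnlg neutrophils had 8 of 18 higher and 1 lower and a median of 0.93. With each barcode thinned to 500 UMIs the median in members was 1.17, and with at least 3 gate genes it was 2.15.

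Surface receptors were higher in 13 of 26 and lower in 1, with a median of 0.81, against 0 higher and 2 lower of 27 in Retnlg neutrophils (median -0.04). The formyl peptide receptor gene Fpr1 stood at 720.2 against 64.7 CPM, a ratio of 11.1 (6.83 to 18.5), and Fpr2 was 3.98-fold higher. Cd14, the co-receptor for endotoxin, stood at 2130 against 658 CPM in members and at 509.5 against 842 CPM in Retnlg neutrophils. Il1rap, Ccr1, Trem1 and Tnfrsf1a were 2.54- to 4.71-fold higher, and the C-type lectin genes Clec4d, Clec4e and Clec4n 2.06- to 2.24-fold. Of the 13 receptor genes, 11 were higher without the member with most UMIs of the list, and 7 kept the call without the member with most UMIs of the gene itself, which left the 3 lectin genes just under 2-fold. Ccrl2, a chemerin-binding receptor gene, was the one that was lower, at 276 against 1037 CPM.

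**Figure D4:**
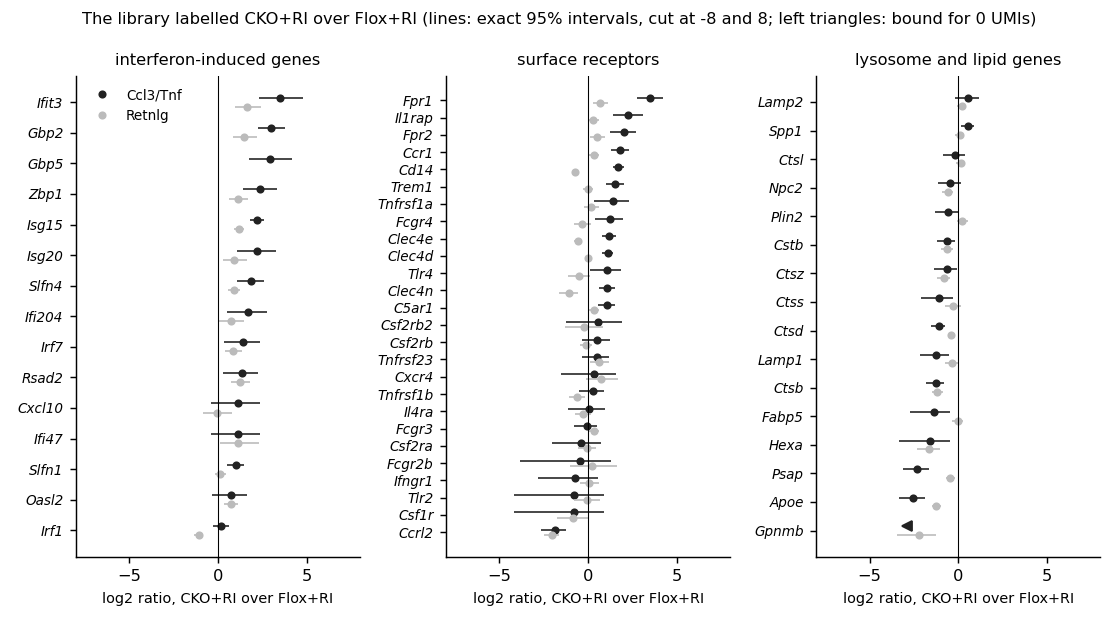
Log2 ratio of level of the library labelled CKO+RI to Flox+RI (x axis) for measured genes of 3 lists, in Ccl3/Tnf neutrophils (black) and Retnlg neutrophils (grey), with exact 95% intervals. A left triangle marks the bound for Gpnmb, which had 0 UMIs in the library labelled CKO+RI. Black points lie to the right of the line in the first list, mostly to the right in the second and mostly to the left in the third.

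Lysosome and lipid genes were lower in 10 of 17 and higher in none, with a median log2 ratio of -1.12, against 4 of 17 lower and a median of -0.44 in Retnlg neutrophils. Apoe, the lipid carrier gene, stood at 276 against 1644 CPM, and Psap, the gene of the saposin precursor, at 276 against 1416 CPM. Ctsd, the cathepsin D gene, stood at 827.5 against 1813 CPM and Ctsb at 552 against 1335 CPM. Gpnmb had 0 UMIs against 146, at least 7.34-fold lower by a floor of 3 UMIs. Over all kept barcodes Apoe stood at 624 against 1879 CPM and Gpnmb at 50.4 against 157 CPM, so these 2 were lower in the whole library too. Thinned to 500 UMIs, the median of the list was -0.68.

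Among the other genes lower in the library labelled CKO+RI, F10 had 1 UMI against 263 and Il23a, the gene of an interleukin-23 subunit, 1 against 154. In Retnlg neutrophils F10 stood at 14.6 against 175 CPM and Il23a at 5.82 against 223 CPM, so both were low in either class. The serum amyloid gene Saa3 had 2 UMIs against 161. Lrmda was 7.08-fold lower in members and 1.82-fold in Retnlg neutrophils, and the lysosomal glycoprotein gene Creg1 was 8.55-fold lower. Itpr2, a calcium channel gene, had 4 UMIs against 246, all 4 in 1 barcode.

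Secreted factors split. Cxcl2 stood at 19063 against 8249 CPM in members, a ratio of 2.31 (2.17 to 2.47), and at 3411 against 9151 CPM in Retnlg neutrophils, where it was lower. Cxcl3 stood at 812 against 115.5 CPM in members, but 22 of its 53 UMIs labelled CKO+RI were in 1 barcode, as were 20 of 50 in Flox+RI. Cxcl1, a chemokine of the same receptor, stood at 138 against 199 CPM with an interval that held 1. Ccl2 and Ccl6 were also higher, and of 9 chemokines none was lower (median 1.15). Csf1 was 2.57-fold higher. Of the genes of the rule, Ccl4 was 2.60-fold higher, whereas Ccl3 (1.24), Il1rn (1.29) and Tnf (0.647) differed by less than 2-fold. Immediate early genes were higher in 7 of 17 and NF-kB targets in 3 of 21 with 2 lower, of which 1 and 1 kept the call without the member with most UMIs of the gene. Of 11 measured transcription factor genes, 3 were higher and 1 was lower. The genes Cebpb, Cebpd and Xbp1 were 3.68-, 2.73- and 3.98-fold higher.

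Flox+RI and Flox+ICI were compared to describe the addition of radiation to checkpoint inhibition in Sfrp2 fl/fl hosts, and this comparison shares Flox+RI with the one before. Ccl3/Tnf neutrophils of Flox+RI held more RNA of hypoxia and glycolysis genes and of some class I genes, and less of monocyte, adhesion and interferon-induced genes. Of 4415 genes, 6.75% were higher and 8.63% lower, and in Retnlg neutrophils 4.94% and 3.67% of 7268. The all-gene median log2 ratio was -0.03 in the members and 0.10 in Retnlg neutrophils. Members held 433004 UMIs in all in Flox+RI and 179418 in Flox+ICI, so their UMI counts are not on the same scale. Of the genes of the rule, whose levels are a description only, Ccl3 was 2.32-fold higher in members and 5.18-fold in Retnlg neutrophils, while Tnf (1.14) and Il1rn (1.20) had intervals that held 1.

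Hypoxia and glycolysis genes were higher in 9 of 24 and lower in 1, with a median log2 ratio of 0.83. Egln3, an oxygen-sensing hydroxylase gene induced by hypoxia, stood at 166 CPM in Flox+RI against 22.3 CPM in Flox+ICI, 7.46-fold higher (2.79 to 28.1), with 3 of its 4 UMIs in Flox+ICI from 1 barcode. The oxidoreductase gene Ero1l stood at 164 against 39.0 CPM, the mitophagy gene Bnip3 at 115.5 against 27.9 CPM, and the lipid droplet gene Hilpda at 272.5 against 89.2 CPM. Tpi1, a glycolytic enzyme gene, stood at 448 against 111.5 CPM, and Pgam1, Eno1 and Pfkl were 2.32- to 2.62-fold higher. Ankrd37 had 38 UMIs against 1. Slc2a3 was the one that was lower, 3.14-fold. Vegfa, the angiogenic growth factor gene, was 3.73-fold higher, and Arg1, which encodes arginase 1, had 44 UMIs against 0, at least 6.08-fold higher by the floor of 3 UMIs, with 16 of the 44 in 1 barcode. In Retnlg neutrophils 10 of 25 of the list were higher (median 0.67), and over all kept barcodes Egln3 stood at 103 against 38.5 CPM, so the gene was higher in the whole library too. Thinned to 500 UMIs, the median in members was 0.38.

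**Figure D5:**
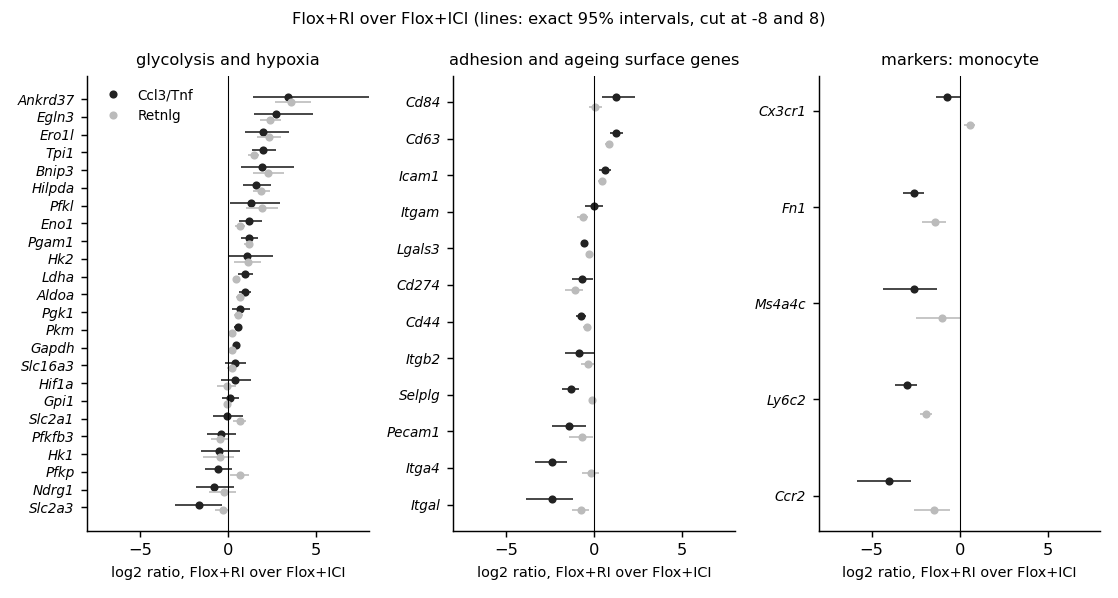
Log2 ratio of level between Flox+RI and Flox+ICI (x axis) for measured genes of 3 lists, in Ccl3/Tnf neutrophils (black) and Retnlg neutrophils (grey), with exact 95% intervals. In the first list black and grey points lie mostly together to the right of the line, while Itgal, Itga4 and Selplg in the second list and Ccr2 in the third lie further left in black than in grey.

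By the same bound, the genes that stood highest included the class I genes H2-Q6, with 118 UMIs against 2, and H2-Q7, with 119 against 6. They are near-identical copies, so their split is uncertain. In Retnlg neutrophils H2-Q6 was 2.97-fold higher and H2-Q7 had a ratio of 1.82. The Ly6 family gene Ly6i had 127 UMIs against 3 and the vesicle traffic gene Rab15 had 70 against 1. Pf4, the platelet chemokine gene that is also a platelet marker, had 91 against 1, with 29 of the 91 in 1 barcode, and stood at 212 against 64.75 CPM over all kept barcodes. The proton pump gene Atp6v1d had 73 UMIs against 3. Itpr2 and Polr2a, the gene of the large RNA polymerase II subunit, were 4.85- and 4.40-fold higher, and the classical class I gene H2-K1 was 2.40-fold higher. Retnlg neutrophils, with 462027 UMIs in Flox+RI and 1594163 in Flox+ICI, held 24 UMIs of Ly6i against 11 and 11 of Rab15 against 2. Pf4 had 65 against 33 and Polr2a 146 against 177 there, so these were higher in that class too. Relative to those UMI totals, Atp6v1d, with 40 against 131, was nearly level, and Itpr2, with 86 against 177, was higher by less than 2-fold. Of 12 measured antigen presentation genes, which leave out H2-Q6 and H2-Q7, 1 was higher in members and 2 lower (median log2 -0.18).

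Lower genes included those of monocytes. Ly6c2 stood at 67.0 against 546 CPM, Ccr2 had 5 UMIs against 36, and the fibronectin gene Fn1 was 6.07-fold lower, so that 4 of 5 monocyte markers were lower with a median log2 ratio of -2.62. Plac8, Crip1 and Ms4a6c were 7.47-, 5.70- and 6.70-fold lower, and Plcb1 and Smpdl3a 9.35- and 7.84-fold. Among Retnlg neutrophils, 3 of the 5 monocyte markers were lower too and 0 higher, with a median log2 ratio of -1.40. Without the members that held 2 or more monocyte markers, the log2 ratio was 0.00945 for Fn1, 0.46 for Ms4a6c, -0.01 for Crip1 and -1.30 for Ly6c2. Fn1 and Ly6c2 are among those markers, so the choice of members to leave out itself lowered them, most in Flox+ICI where they were high. Scgb1a1, a club cell gene of the airway, stood at 132 against 1393 CPM in members, and at 146 against 1430 CPM over all kept barcodes, so it was lower in the whole library too.

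Adhesion genes were lower in 5 of 13 and higher in 2 (median -0.72, and -0.67 without members that held 2 or more monocyte markers). Such markers were more frequent in Flox+ICI, as given above, and without those members 304 genes were lower in place of 381. Itgal and Itga4, integrin subunit genes, were 5.43- and 5.25-fold lower, Selplg, the P-selectin ligand gene, 2.51-fold and Pecam1 2.66-fold. Cd63, of azurophil granules and endosomes, and Cd84 were 2.41- and 2.52-fold higher. Interferon-induced genes were lower in 5 of 16 and higher in 1 (median -0.74, and -1.24 without those members), among them Gbp2 at 67.0 against 173 CPM. Since Flox+RI stands in both comparisons, its low interferon-induced levels enter both. Among Retnlg neutrophils, 5 of 21 interferon-induced genes were lower and 1 higher, but the median was 0.18. Lysosome and lipid genes were higher in 4 of 18, among them Cstb, Gpnmb and Spp1 (2.39- to 3.18-fold), and lower in none, with a median of 0.47. Without the Flox+ICI barcode with 12 of its 19 UMIs, Gpnmb was 8.47-fold higher. Lyz2, the lysozyme gene, and Cybb, of the NADPH oxidase, were 3.06- and 4.65-fold lower, and the part of the monocyte markers in these 2 was not tested.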

How the data were processed

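Droplet single-cell RNA libraries of 3 tumour samples were analysed, 1 per group, grouped by their titles. For each barcode, the deposited files give counts of UMIs for 32285 genes, which are whole numbers that the authors had not normalised. The file headers name Cell Ranger 6.1.2 as the authors' tool, while the submitters' processing notes list Cell Ranger 6.0, the genome mm10 (GRCm38) and Seurat 5.0.3, with no role for the last. Their gene annotation was not given in the sources used here. Every deposited barcode held at least 500 UMIs, so shallower neutrophils are not seen, and free RNA from broken cells adds UMIs to every barcode.

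The rule that chose the members was applied to the counts without clustering. No doublet caller was run, and leaving out barcodes with 3 or more markers of another cell type stood in for one. CPM is the sum of a gene's UMIs over a class in 1 library per 1000000 UMIs of that class. Levels carry exact Poisson, shares exact binomial (Clopper-Pearson) and ratios exact conditional binomial 95% intervals. Log2 ratios for list medians add 0.5 to each sum, and genes of the rule were left out of all counts of genes. Against a sum of 0, the floor was 3 UMIs over the class.

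Named were, against Retnlg neutrophils, the 12 higher and 10 lower genes, and between libraries the 8 higher and 8 lower genes, with the interval bound farthest from 1. They needed at least 50 UMIs and a UMI in 10% of cells of the higher class, in both Flox libraries for the first, and in the second at least 0.5 times the level over all kept barcodes. Not eligible were Xist, Tsix, Gm and Rik genes, and genes that are Y-linked, mitochondrial, or for ribosomal proteins, haemoglobin, immunoglobulins or T cell receptors. The rule also takes up to 4 called genes of each list and up to 2 whose interval holds 1, and further list genes were named after their values were seen. A few genes that fall under these rules are not reported here, though they stand in the counts and medians. Members and lists were chosen with earlier results of these data known.

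Alternatives varied the gate, the margin, the limits on UMIs and mitochondrial UMIs, depth (500 UMIs per barcode), other-cell markers, weighting, scaling, the count minimum and the barcode with most UMIs of a gene. On simulated counts for the Flox+ICI and Flox+RI classes, 4-fold increases were called in 96.0% and 100% of genes and 2-fold increases in 35.7% and 31%. Since a call needs a measured ratio of at least 2, a simulated 2-fold increase sat at the limit, and its low share follows from that. The simulated counts were Poisson draws without spread between cells. They therefore do not show how reliable the calls are where a gene's UMIs gather in single barcodes. Python 3.11.15, numpy 2.4.6, scipy 1.17.1, pandas 2.3.3 and matplotlib 3.10.9 were used.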

Additional observations from a re-analysis of the deposited data

Results flagged for a closer look

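Ccl5, the gene of a chemokine of T cells and monocytes, went opposite ways in the Flox libraries. In Flox+ICI the members held 27.9 CPM against 136 CPM in Retnlg neutrophils, a ratio of 0.205 (0.0658 to 0.485), from 5 UMIs. In Flox+RI they held 157 CPM against 56.3 CPM, a ratio of 2.79 (1.75 to 4.57). In Flox+RI 37 of its 68 UMIs lay in 1 member, without which the ratio was 1.28 (0.734 to 2.24). With 1 library per group the difference between these ratios was not tested. In the library labelled CKO+RI the ratio was 0.518, with an interval of 0.233 to 1.01.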

How the results depend on the processing

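No paired analysis was possible because the labels carry no replicate numbers and each group is 1 library, so leaving out a replicate was not possible either. The alternatives with at least 1 gate gene and without barcodes holding 2 or more monocyte markers were chosen after seeing the data. The share of kept barcodes in Flox+ICI, Flox+RI and CKO+RI (1.25%, 3.47% and 0.454%) was 2.48%, 8.80% and 0.83% with at least 1 gate gene, and 0.683%, 2.23% and 0.321% with barcodes thinned to 500 UMIs. Without barcodes holding markers of other cells it was 0.786%, 3.14% and 0.299%. In the first 2 it was 0.711% and 1.38% with at least 3 gate genes and 0.758% and 2.60% with a margin of 2 UMIs. Without monocyte markers it was 1.03% in Flox+ICI. The share of classified neutrophils (10.5%, 46.0% and 10.6%) was 16.1%, 63.8% and 15.6% with at least 1 gate gene. In the first 2 it was 7.55% and 34.9% with at least 3, 7.15% and 42.2% with the margin and 7.78% and 40.5% thinned, and in Flox+ICI 8.82% without other-cell markers. Flox+RI stayed highest under each of these.

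Counts of called genes moved too. Beside 148 genes higher and 79 lower in both Flox libraries as reported, each alternative gave a count of its own: 248 and 140 with at least 1 gate gene, 70 and 48 with at least 3, 39 and 30 thinned, 94 and 51 without other-cell markers and 56 and 169 with median ratio scaling, and 57 higher without the upper UMI limit. For CKO+RI against Flox+RI (326 and 281), the counts were 634 and 452 with at least 1 gate gene, 177 and 170 with at least 3 and 83 and 48 thinned. There were 515 higher without a count minimum and 175 lower without other-cell markers. For Flox+RI against Flox+ICI (298 and 381), they were 483 and 891, 155 and 158, and 90 and 115 in the same order. There were 628 lower without a count minimum and 635 lower without the upper UMI limit.

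Of 903 list medians under an alternative, 852 moved by little and 1 changed sign, the chemokines of the library labelled CKO+RI against Retnlg neutrophils, at -0.0497 without the upper UMI limit. Of 980 ratios of named genes under alternatives other than the next, 705 moved by little. Another 272, spread over 83 different ratios, moved further without a change of sign. The remaining 3 changed sign, all in Flox+RI against Flox+ICI. These were Crip1 at 0.0556 when thinned and Fn1 at 0.00945 and Ms4a6c at 0.46 without monocyte markers, on the log2 scale. Leaving out the barcode with most UMIs of a gene in either class, also chosen after seeing the data, ended the call for 86 of 407 called ratios of named and listed genes and moved 49 by over 1.5 times. H2-Aa changed sign in members of Flox+RI against Retnlg neutrophils (-0.100) and Ccl7 in members of Flox+RI against Flox+ICI (0.758). The cause of the other changes was not tested. The 41 cells labelled CKO+RI hold 65259 UMIs, which limits their intervals.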

Other observations

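Members with 2 or more of the 5 defining genes were set beside members with 1. In Flox+ICI, 61 such members held more RNA of the haem oxygenase gene Hmox1 (240.2 against 62.4 CPM) and of Cstb (588.5 against 187 CPM) than the other 73. Called by the same limits, 50 of 1591 genes were higher and 30 lower. In Flox+RI, 262 such members held more RNA of the TNF receptor adaptor gene Traf1 (219 against 73.4 CPM) and of Cd274, the PD-L1 gene (178 against 85.7 CPM), than the other 191. They held less of the macrophage growth factor receptor gene Csf1r (33.4 against 116 CPM). Without the member with most of its UMIs, Cd274 was at a ratio of 1.91, under the 2-fold limit. There, 68 of 3420 genes were higher and 67 lower. Traf1 went the same way in Flox+ICI (84.1 against 41.6 CPM). Cd274 (192 against 260 CPM) and Csf1r (144 against 72.8 CPM) went the other way in Flox+ICI, and none of these was called in that library. Hmox1 and Cstb were in turn not called in Flox+RI. Of the 67 Hmox1 UMIs in the 262 members of Flox+RI, 29 lay in 1 member, without which the ratio was 0.862 (0.512 to 1.47). Cstb was at 1.63 there (1.30 to 2.07) without the member with most of its UMIs. Cd74 was higher in such members of Flox+ICI (444 against 208 CPM) and lower in those of Flox+RI (274.5 against 624 CPM), where 70 of its UMIs lay in 1 member. Without the member with most of its UMIs, the ratios were 1.64 and 1.37, with intervals that held 1. Cells with more of the defining genes were deeper, with medians of 939 against 853 UMIs and 859.5 against 702 UMIs, and the part of depth in these differences was not tested.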
